A study of Mus musculus with 8 samples.

Results

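The sites described here are CpG positions that stood apart from CpG-dense DNA and carried little methylation in every sample of a mouse mammary tumor series. A site was taken when at most 7 other listed sites lay within 250 bp of it on the same chromosome and when its methylation level was at most 20% in all 8 samples. Of 136069 listed sites, 58896 met the first condition and are called sparse, 26835 met the second, and 6224 met both. These 6224 sites, called members below, made up 4.57% of the table, 10.6% of the sparse sites and 23.2% of the low sites. The members were chosen by the deposited levels of all 8 samples, so their low level is how they were chosen and not a result.

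All samples came from the 4T1 line, a transplantable mammary carcinoma line of BALB/c mice that seeds the lung. There were 3 lung metastases marked TVI, 3 lung metastases marked MFP and 2 primary mammary tumors, also marked MFP, with the abbreviations kept as the labels give them. No label names another treatment, time, age or genotype. The labels do not tell if a group's samples are from different mice, so a p-value here reflects sample-to-sample spread that could be technical. Each value was the share of calls at a position that read as methylated after bisulfite conversion, with no count behind it, so the depth is unknown and no counting interval can be given.

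DNA methylation in mammals sits almost wholly on the cytosine of CpG pairs, most of which are methylated. The main exceptions are CpG islands, which are dense in CpGs and often span gene starts, and short low-methylated stretches of CpG-poor DNA, which are known to mark enhancers and other places where transcription factors bind. Methyl groups are placed by the DNMT enzymes and removed by way of the TET enzymes or lost through cell division. Tumor cells often gain methylation at islands and lose it elsewhere.

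The sequences of 8 promoters that held members are printed first, because they show that the members were of more than one kind. Each line holds the 250 bases before a gene start from RefSeq, read 5′ to 3′ on the gene's strand, with the CpGs that were members in capitals and all other bases in lower case. Coordinates are those of RefSeq on GRCm38.p6, and the deposited table used other positions for the same bases. The first 4 are CpG-poor, the fifth holds a single member among methylated CpGs, and the last 3 are CpG-rich. They are Syt8 (a synaptotagmin family gene, plus strand, chr7:142434727-142434976), Myl6 (a myosin light chain, minus strand, chr10:128493010-128493259), Ptpa (an activator of protein phosphatase 2A, plus strand, chr2:30441603-30441852), Ksr1 (a scaffold of the Raf to MEK to ERK cascade, minus strand, chr11:79059837-79060086), Stat5a (a transcription factor of mammary gland development, plus strand, chr11:100859406-100859655), Capn2 (a calpain protease subunit, minus strand, chr1:182517611-182517860), Bax (a promoter of apoptosis, minus strand, chr7:45466899-45467148) and Fasn (fatty acid synthase, minus strand, chr11:120824548-120824797).
Syt8: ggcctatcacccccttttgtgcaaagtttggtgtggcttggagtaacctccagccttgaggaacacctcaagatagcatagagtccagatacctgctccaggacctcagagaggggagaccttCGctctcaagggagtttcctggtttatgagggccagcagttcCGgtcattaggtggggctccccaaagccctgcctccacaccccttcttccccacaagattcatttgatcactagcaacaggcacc
Myl6: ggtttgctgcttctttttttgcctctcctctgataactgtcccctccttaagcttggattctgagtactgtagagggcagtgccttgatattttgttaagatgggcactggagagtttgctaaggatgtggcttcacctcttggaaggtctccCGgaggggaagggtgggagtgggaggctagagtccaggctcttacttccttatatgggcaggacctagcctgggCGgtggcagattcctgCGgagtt
Ptpa: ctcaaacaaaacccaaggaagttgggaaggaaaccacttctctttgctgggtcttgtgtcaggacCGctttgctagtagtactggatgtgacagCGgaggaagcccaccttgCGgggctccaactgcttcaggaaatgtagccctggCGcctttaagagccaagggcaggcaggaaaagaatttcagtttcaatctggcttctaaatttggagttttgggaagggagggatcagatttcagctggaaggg
Ksr1: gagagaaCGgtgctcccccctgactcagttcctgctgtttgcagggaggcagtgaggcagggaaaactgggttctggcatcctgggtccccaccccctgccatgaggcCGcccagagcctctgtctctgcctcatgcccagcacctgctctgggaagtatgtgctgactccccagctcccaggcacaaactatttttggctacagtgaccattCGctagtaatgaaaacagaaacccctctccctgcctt
Stat5a: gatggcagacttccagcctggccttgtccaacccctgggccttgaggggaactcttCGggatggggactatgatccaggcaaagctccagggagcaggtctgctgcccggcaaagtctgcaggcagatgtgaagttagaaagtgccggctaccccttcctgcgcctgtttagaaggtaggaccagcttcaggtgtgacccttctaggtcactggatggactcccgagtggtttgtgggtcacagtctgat
Capn2: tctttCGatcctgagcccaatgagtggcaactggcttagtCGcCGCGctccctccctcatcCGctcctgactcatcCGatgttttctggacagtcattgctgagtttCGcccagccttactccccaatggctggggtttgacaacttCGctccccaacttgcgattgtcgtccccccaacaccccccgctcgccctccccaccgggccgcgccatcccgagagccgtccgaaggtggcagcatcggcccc
Bax: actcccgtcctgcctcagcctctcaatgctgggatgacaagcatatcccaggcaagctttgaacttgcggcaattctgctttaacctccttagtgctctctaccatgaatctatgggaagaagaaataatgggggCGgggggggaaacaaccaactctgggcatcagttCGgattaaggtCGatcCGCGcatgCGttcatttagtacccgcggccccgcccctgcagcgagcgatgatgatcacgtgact
Fasn: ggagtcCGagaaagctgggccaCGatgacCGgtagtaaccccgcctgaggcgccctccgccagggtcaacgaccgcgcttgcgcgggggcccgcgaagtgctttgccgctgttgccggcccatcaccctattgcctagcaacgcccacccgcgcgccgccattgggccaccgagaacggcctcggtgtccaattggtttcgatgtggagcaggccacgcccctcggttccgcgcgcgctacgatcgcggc

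Genes were placed by matching the spacing of the listed sites to the CpG spacing of RefSeq promoter sequences, since the deposited positions did not follow that build. Of 459 promoter windows of 300 bases tried near a matched window, 392 windows of 335 genes were placed with every listed position on a CpG. When windows were shifted along the chromosome by 3 other distances, 0 of 456, 0 of 463 and 0 of 452 matched. Only a small part of the 32851 RefSeq promoters could be placed in this way, so counts of genes below are counts among placed genes.

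In 48 placed genes, 52 promoter windows held members, and a split at 15 CpGs puts 24 genes in each of 2 sets. In the 24 genes with fewer than 15 CpGs in the window, the sequence held 3 to 14 CpGs with a median of 6, and the table listed 71.5% of the 158 CpGs. In 13 of these 24 genes every CpG of the window was listed. At Syt8 the window held 3 CpGs, all of them listed and all of them members, and Myl6 and Ksr1 each had 4 of 4. These were CpG-poor starts by their sequence as well as by the count of listed sites.

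In the other 24 genes the sequence held 17 to 40 CpGs with a median of 25.5, and the table listed 17.9% of the 625 CpGs. Fasn had 39 CpGs and 3 listed sites, Snai1, the transcriptional repressor of epithelial genes, had 34 and 6, and Capn2 had 27 and 8. In 21 of the 24 genes the listed sites were consecutive CpGs, and 20 of the 513 unlisted CpGs lay between listed ones. The Fasn sequence above shows this arrangement, with the first 3 CpGs in capitals and the 30 that follow unlisted. By a common rule for islands, a GC share over 50% with an observed to expected CpG ratio over 0.6, 21 of the 48 windows were CpG-rich, against 33.3% of all RefSeq promoters. The working name for the members, low-methylated sites outside islands, therefore did not hold at these starts, where few listed sites meant that the listing stopped and not that CpGs were few. Over all 392 placed windows the table listed 58.5% of 7337 CpGs.

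**Figure D1:**
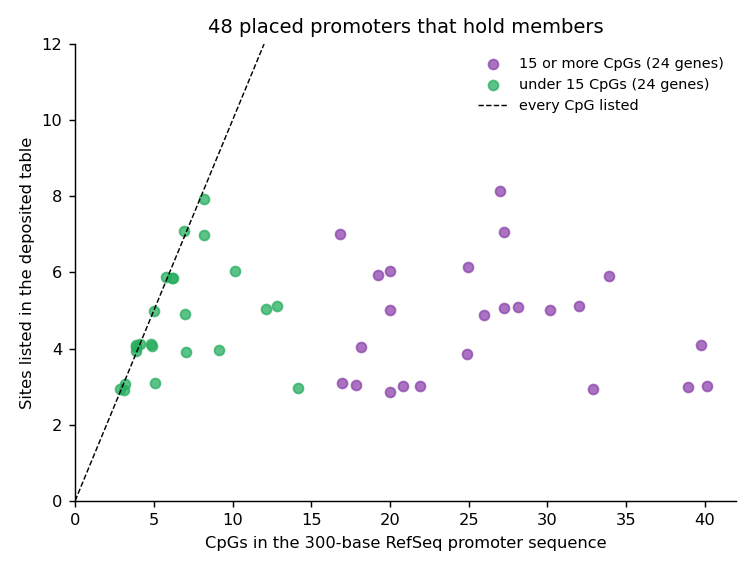
CpGs counted in the 300-base RefSeq promoter sequence (x axis) against the sites listed in the deposited table (y axis) for 48 placed genes that held members, 1 point per gene, spread slightly so that equal values can be seen. Of the 24 genes with under 15 CpGs, 13 lie on the dashed line where every CpG is listed, while those with 15 or more CpGs stay at 3 to 8 listed sites.

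At 32 of the 48 genes, counting 1 window per gene, the mean level of the members was at most 5% in all 8 samples, and the highest value at any gene was 14.6%. The metastasis groups overlapped at 39 genes, TVI metastases were all above MFP metastases at 7 and all below at 2, where over all sites of the table the groups did not overlap at 28.8%, 17.9% with TVI higher and 10.9% with TVI lower. At Syt8 the mean level of the 3 members was 2.31, 2.42 and 2.09% in TVI metastases, 2.99, 3.43 and 1.02% in MFP metastases, and 1.20 and 3.31% in primary tumors. At Bax the mean of 6 members was 1.71, 1.73 and 1.78% in TVI metastases, 2.02, 0.966 and 0.407% in MFP metastases, and 0.450 and 0.476% in primary tumors. At both genes the values of TVI and MFP metastases overlapped. The 4 members at Ksr1 were at 6.24, 5.57 and 4.17% in TVI metastases, 3.32, 2.34 and 7.20% in MFP metastases, and 3.798 and 4.82% in primary tumors, which overlap as well.

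A few genes were chosen for description after their values were seen, because their members did not lie near 0 or the metastasis groups stood apart. At Ankrd13d the 3 members averaged 8.30, 10.1 and 9.79% in TVI metastases, 3.33, 4.95 and 2.87% in MFP metastases, and 1.23 and 0% in primary tumors. At Mc1r, a melanocortin receptor, the 2 members averaged 5.72, 5.87 and 6.41% in TVI metastases, 1.57, 1.70 and 1.55% in MFP metastases, and 1.63 and 1.92% in primary tumors. The single member at Nfatc2, a transcription factor of the NFAT family, read 12.3, 13.98 and 8.33% in TVI metastases, 5.797, 7.35 and 3.797% in MFP metastases, and 0 and 7.02% in primary tumors. At these 3 genes TVI metastases lay above all other samples. At Haspin, a histone kinase, the 2 members averaged 5.50, 2.70 and 3.45% in TVI metastases, 9.61, 7.02 and 10.7% in MFP metastases, and 7.21 and 10.4% in primary tumors, so that TVI metastases lay below all other samples there.

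The Stat5a window was of another kind. Its member, at -194 bp relative to the start (negative is upstream), was at 13.5, 5.45 and 7.69% in TVI metastases, 13.0, 14.6 and 11.2% in MFP metastases, and 8.20 and 9.33% in primary tumors. The other 4 CpGs of the window averaged 63.1%, and the CpG 89 bp downstream of the member was at 84.9% ± 3.74 in TVI metastases and 88.4% ± 1.01 in MFP metastases (SD, n = 3 each). The CpG 167 bp downstream of the member was higher in TVI metastases, with 65.0, 54.1 and 57.0%, against 48.7, 28.1 and 36.7% in MFP metastases (difference 20.9 points, limma adjusted p = 0.0149). The member itself did not pass the test (difference of -4.08 points, limma adjusted p = 0.229).

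Short motifs were counted in the windows on both strands as a description of the sequences. The Sp1 box GGGCGG, bound by Sp and KLF factors, was in 11 of the 24 member-holding windows with fewer than 15 CpGs, or 45.8%. It was in 13.9% of the 21473 RefSeq promoters with fewer than 15 CpGs. Those promoters had no lower limit on CpGs, while these windows held 3 to 14, so the sets were not matched. The box itself contains a CpG. With 15 or more CpGs, the box was in 20 of 24 windows and in 76.8% of 11378 promoters. The AP-1 motif TGANTCA, bound by Fos and Jun dimers, was in 5 of 24 windows of either set, or 20.8%, against 10.2% of CpG-poor and 3.23% of CpG-rich promoters. Both Capn2 and Ksr1 had such a match, at -183 and -230 bp relative to the start. The E-box CACGTG, bound by Myc and other helix-loop-helix factors, also contains a CpG. It was in 4 of 24 CpG-poor and 3 of 24 CpG-rich windows, against 4.95% and 11.3% of promoters. The CCAAT box was in 5 of 24 CpG-poor windows and in 38.7% of such promoters. A gene with more than one window was counted once, by 1 of its windows, and these windows were found through their listed sites, so the shares describe these windows only.

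Along the placed starts, the share of members was lowest just after the start. Among listed sites from the start to 250 bp downstream, 1.83% were members and 73.8% were low sites in dense surroundings. In the 250 bp before the start the shares were 4.78%, or 141 members, and 73.1%. From beyond 1000 to 2000 bp downstream, 6.36% were members and 20.6% were dense low sites, and over the same distances upstream the shares were 5.99% and 16.9%. The sparse condition uses the count of listed sites, which peaks near these starts, so part of this profile follows from the rule. In all, 944 members (15.2%) lay within 2000 bp of a placed start, at 205 genes, compared with 47.4% of dense low sites, 6.60% of the sparse sites that were not members and 14.5% of the whole table. Of those 944 members, 437 were upstream and 507 were at or downstream of the start.

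Few genes of the lists used for this tumor model could be placed. Of 15 epithelial genes, 3 were placed. Cldn4, a tight junction claudin, had 11 members between -1275 and 1524 bp relative to its start, with a mean level of 4.60, 5.01 and 5.63% in TVI metastases, 5.55, 4.25 and 4.04% in MFP metastases, and 3.67 and 3.78% in primary tumors. The metastasis groups overlapped there, and all 6 metastases were above both primary tumors. Elf3, an epithelial Ets factor, had 1 member, and Cldn7, another claudin, had 0 among 70 listed sites within 2000 bp, of which 3 were higher and 28 lower in TVI than in MFP metastases (limma adjusted p under 0.05), where 16.9% of all tested sites passed.

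Snai1 was the only one of 10 mesenchymal genes that was placed. Its 7 members lay 6 to 1273 bp after the start and averaged 2.67, 0.642 and 1.57% in TVI metastases, 4.05, 2.84 and 1.85% in MFP metastases, and 3.35 and 3.11% in primary tumors. The metastasis groups overlapped. Of 17 cell cycle and transcription factor genes, 2 were placed. Cdk6, a kinase of the cell cycle's first gap phase, had 5 members, which averaged 6.42, 3.41 and 6.59% in TVI metastases, 1.80, 2.32 and 3.75% in MFP metastases, and 4.83 and 4.11% in primary tumors, with overlap between the metastasis groups. Fos, a subunit of AP-1, had 2, which averaged 3.01, 2.73 and 4.14% in TVI metastases, 0, 2.51 and 1.09% in MFP metastases, and 1.06 and 1.14% in primary tumors. TVI metastases were above all other samples at these 2 members of Fos, with 2.73% in the lowest TVI and 2.51% in the highest MFP metastasis. Of 123 other listed sites within 2000 bp of the Fos start, 1 was higher and 5 were lower in TVI than in MFP metastases (limma adjusted p under 0.05). Higher and lower were 0 and 8 of 91 other sites at Cdk6 and 7 and 8 of 59 at Snai1. They were 3 and 2 of 58 at Elf3 and 0 and 0 of 64 at Cldn4. Notch1 was the only one placed of 16 TGF-beta, Wnt and Notch genes and had 0 members among 113 listed sites, of which 28 were higher and 3 lower in TVI than in MFP metastases by the same threshold. None of 8 genes of the methylation machinery and none of 25 markers of immune, endothelial, lung epithelial and fibroblast cells was placed, so the members could not be set beside markers of other cells in the samples.

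Members were spread over all 20 chromosomes in the table. Chromosome 11 held 1135 of them, or 4.69% of its 24179 listed sites, and chromosome 2 held 851, or 5.68% of 14973. The share was 7.57% of 3685 sites on chromosome 3 and 2.97% of 6836 on chromosome 16. Low methylation became more frequent with local density: 8.29% of sites with 1 other listed site within 250 bp were low, 12.1% of those with 7, 38.9% of those with 16 to 23, and 70.1% of those with 32 or more. The share was 10.5% with 6 other sites and 14.4% with 8 to 11, so it kept rising across the limit of 7.

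Most members lay in groups. Joined at gaps of up to 500 bp, they formed 2024 runs, of which 872 were single sites and 444 had 5 or more members, these 444 runs holding 3447 members (55.4%). The longest run by members, 25 sites on chromosome 7 between positions 149619584 and 149621798 as deposited, spans the start of Syt8, and each of the 25 listed sites in it was a member. Its mean level was 1.84, 1.58 and 1.60% in TVI metastases, 1.83, 1.30 and 0.936% in MFP metastases, and 2.0 and 1.49% in primary tumors, so the groups overlapped.

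The DNA just before that run behaved otherwise. In the 2000 bp before it lay 13 listed sites, the nearest 129 bp away, and they averaged 79.6, 88.4 and 85.8% in TVI metastases, 50.9, 47.5 and 50.9% in MFP metastases, and 37.2 and 38.2% in primary tumors. The 3 groups did not overlap in this mean, while the 25 members of the run stayed at or below 6.76% in every sample. The 13 sites were not alike. Those at 149617644 and 149619086 did not pass between TVI and MFP metastases (limma adjusted p = 0.469 and 0.811), and the others did. The site at 149619086 averaged 95.8% in TVI metastases, 94.9% in MFP metastases and 92.9% in primary tumors. Other long runs were 23 members among 26 listed sites on chromosome 3 from 88297321 to 88299783, 23 of 26 on chromosome 5 from 115983970 to 115985852 and 19 of 19 on chromosome 11 from 60746303 to 60747672. The nearest member of the last of these lies 746 bp after the start of Map2k3, a kinase upstream of p38. A run of 19 members among 34 listed sites on chromosome 2 from 30295804 to 30298376 holds the Ptpa window printed above. In these named runs at most 1 member passed the test between TVI and MFP metastases.

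Members differed in what surrounded them. For 4065 members (65.3%) the other listed sites within 250 bp averaged under 20%, and these members had a median level of 1.94% over the 8 samples. For 1149 the surroundings averaged 20 to 50% and for 599 they averaged 50 to 80%, with median member levels of 3.99% and 4.57%. For 330 members (5.30%) the surroundings were at 80% or more, and their median level was 1.32%. The remaining 81 members had no other listed site within 250 bp.

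Members in highly methylated surroundings thus had the lowest median of the 5 classes, and they were at 0 in all 8 samples most often, 23 of 330 (6.97%) against 14 of 4065 (0.344%) of members in low surroundings. At most 5% in every sample were 69.4% of the 330 and 55.3% of the 4065. They lay within 2000 bp of a placed start in 4.24% of cases, compared with 18.5% of members in low surroundings. Between TVI and MFP metastases, 6.19% of the 307 tested passed the limma threshold, as did 8.54% of members in low surroundings, 17.4% of those in surroundings of 20 to 80% and 16.9% of all tested sites. The position with the highest surroundings, 114247223 on chromosome 8, was at 0, 0.457 and 0% in TVI metastases, 0, 0.521 and 0% in MFP metastases, and 0% in both primary tumors, while its 3 neighbours averaged 97.1%. Position 8335253 on chromosome 11 was at 0, 1.20 and 2.22% in TVI metastases, 3.23, 0 and 1.65% in MFP metastases, and 1.65 and 1.75% in primary tumors, and the site 11 bp away was at 96.3%. Its 7 neighbours averaged 96.5%. In all, 481 members had a nearest site at 80% or more, and for 117 of these it was at most 20 bp away. Bisulfite sequencing reads a thymine that replaces the cytosine in the genome as an unmethylated cytosine, and whether any of these positions carries such a change was not tested.

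**Figure D2:**
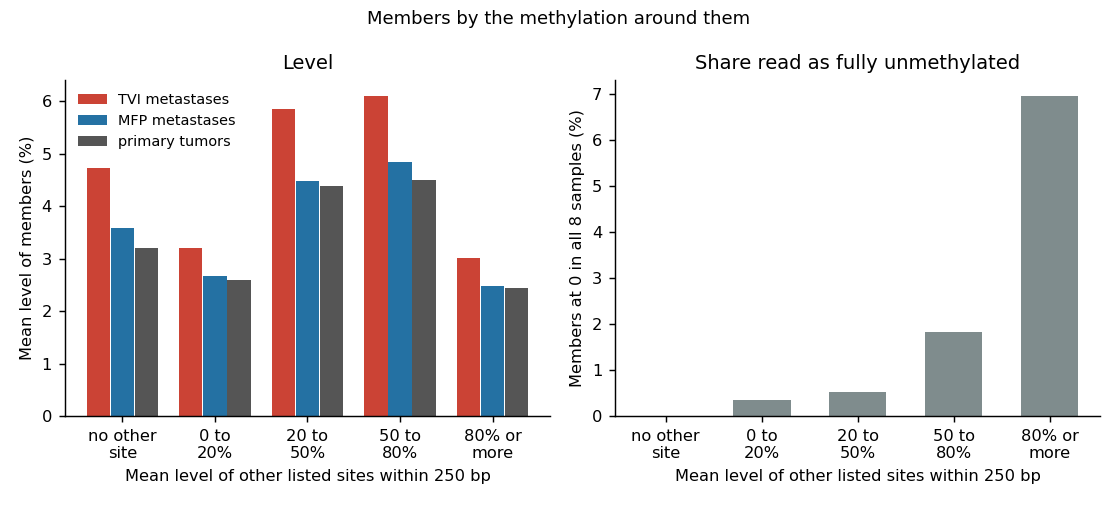
Left, mean methylation level of members (y axis, %) in TVI metastases, MFP metastases and primary tumors for 5 classes of surroundings (x axis, mean level of the other listed sites within 250 bp). Right, share of members in each class that read 0 in all 8 samples, which reaches 6.97% where the surroundings were at 80% or more.

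The limit of 20% cut a continuous range. There were 610 members whose highest sample was above 15%, and 601 sparse sites just outside with a highest sample above 20% and up to 25%. The site just inside on chromosome 2 at 167046286 read 12.7, 20 and 19.6% in TVI metastases, 1.90, 4.82 and 1.01% in MFP metastases, and 5.56 and 4.76% in primary tumors. The site just outside on chromosome 10 at 76630134 read 14.7, 20.1 and 17.3% in TVI metastases, 8.10, 7.46 and 5.35% in MFP metastases, and 3.85 and 1.91% in primary tumors. Well inside the limit, 3001 members (48.2%) were at most 5% and 4847 (77.9%) at most 10% in every sample, and 54 were at 0 in all 8.

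Within the limit, members were slightly more methylated in TVI metastases. Their mean level was 4.09, 3.92 and 3.95% in TVI metastases, 3.25, 3.16 and 3.22% in MFP metastases, and 3.12 and 3.09% in primary tumors. The 3 groups did not overlap, with means of 3.98% ± 0.0900 in TVI metastases, 3.21% ± 0.0445 in MFP metastases (SD, n = 3 each) and 3.11% ± 0.0169 in primary tumors (SD, n = 2). Members above 10% made up 11.2, 10.8 and 10.3% in TVI metastases, 6.33, 6.19 and 6.11% in MFP metastases, and 6.04 and 6.22% in primary tumors. After quantile normalization of the 8 samples, the means were 3.34, 3.70 and 3.57% in TVI metastases, 3.43, 3.31 and 3.38% in MFP metastases, and 3.47 and 3.48% in primary tumors, and the groups overlapped. The low sites in dense surroundings averaged 2.30% ± 0.0451 in TVI metastases, 2.12% ± 0.0290 in MFP metastases (SD, n = 3 each) and 1.98% ± 0.0167 in primary tumors (SD, n = 2) as deposited. Members therefore had the higher mean in every sample.

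**Figure D3:**
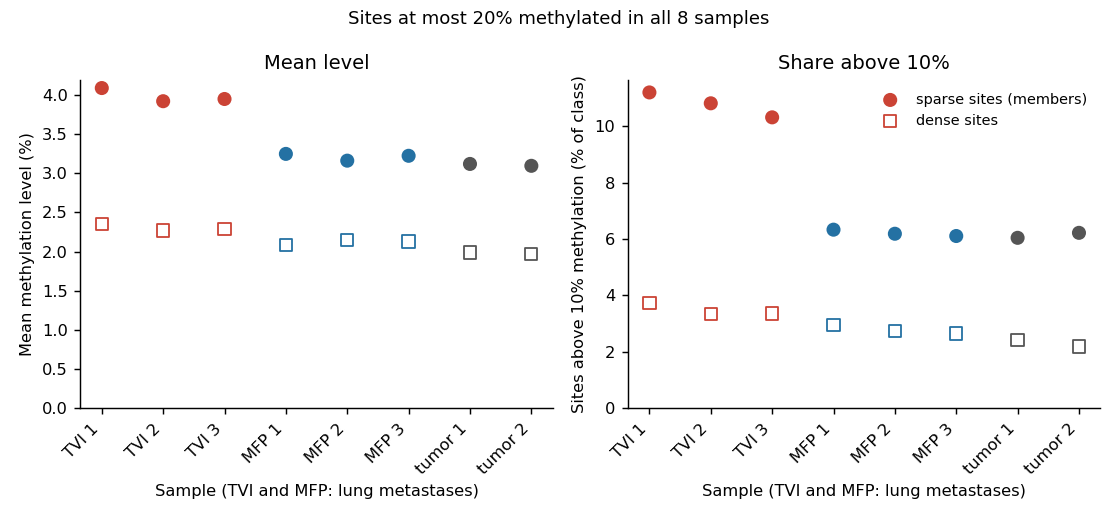
Mean methylation level (left, %) and share of sites above 10% (right, % of the class) in each of the 8 samples, for the 6224 members (filled circles) and the 20611 dense low sites (open squares), with TVI metastases in red, MFP metastases in blue and primary tumors in grey. Members stand at 3.92 to 4.09% in TVI metastases and at 3.16 to 3.25% in MFP metastases.

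Single members were compared with limma on the fractions, fitted over all sites that varied, with Benjamini-Hochberg adjusted p under 0.05. Since the rule caps every member at 20%, differences were bounded and the counts are a description. Between TVI and MFP metastases, 546 members were higher and 126 lower of 6170 tested, or 10.9%, where 16.9% of all tested sites passed, 10.4% higher and 6.53% lower. Against primary tumors, TVI metastases had 484 members higher and 93 lower, or 9.35%, where 16.6% of all sites passed, 11.4% higher and 5.24% lower. For MFP metastases against primary tumors, 1 member was higher and 0 lower, with 468 under an unadjusted p of 0.05, where 0.0464% of all sites passed, 0.0427% higher and 0.00368% lower. For all metastases against primary tumors, 118 were higher and 49 lower, or 2.71%, where 6.74% of all sites passed, 5.12% higher and 1.62% lower. With quantile normalization the splits of higher to lower were 359 to 176 for TVI against MFP metastases, 267 to 193 for TVI metastases against primary tumors and 52 to 99 for all metastases against primary tumors, so the direction of the last one flips. It also flips with a limit of 10% in place of 20%, where all metastases had 10 members higher and 17 lower than primary tumors. Without the first primary tumor the last comparison gave 25 members, 2 of them higher, and without the second 46, 12 of them higher.

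The members with the largest differences lay near the limit in one group and near 0 in another. Position 137686760 on chromosome 1 read 19.6, 19.1 and 16.9% in TVI metastases, 1.57, 1.63 and 1.97% in MFP metastases, and 1.64 and 1.56% in primary tumors. TVI metastases were 16.8 points above MFP metastases (SE 1.19, limma adjusted p = 3.92e-06), and all 3 lay above all other samples. Position 80752396 on chromosome 10, 1617 bp after the start of Tjp3, a tight junction scaffold, read 16.02, 17.4 and 19.6% in TVI metastases, 1.99, 2.26 and 1.73% in MFP metastases, and 2.52 and 3.77% in primary tumors (difference between metastasis groups 15.7 points, limma adjusted p = 8.72e-06). Position 27176190 on chromosome 17 read 18.4, 9.09 and 17.1% in TVI metastases and 0% in all MFP metastases.

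Members that were lower in TVI metastases were fewer. Position 94935927 on chromosome 11 read 3.04, 0.803 and 1.46% in TVI metastases, 16.1, 16.8 and 14.7% in MFP metastases, and 13.4 and 17.5% in primary tumors (difference between metastasis groups of -14.1 points, SE 1.48, limma adjusted p = 4.63e-05). TVI metastases lay below all other samples, and MFP metastases and primary tumors overlapped. Position 20953643 on chromosome 9, 736 bp after the start of Cdc37, a co-chaperone of Hsp90, read 6.19, 4.85 and 2.17% in TVI metastases, 19.7, 14.7 and 13.4% in MFP metastases, and 16.05 and 12.5% in primary tumors. Position 111237724 on chromosome 5, 1377 bp after the start of Ulk1, a kinase that starts autophagy, read 3.02, 4.41 and 2.41% in TVI metastases and 15.02 and 19.2% in primary tumors (difference of -13.8 points, limma adjusted p = 0.000151).

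A pair of called members rested on less. Position 21205480 on chromosome 16, 611 bp after the start of Ephb3, an ephrin receptor, read 18.2, 18.8 and 16.1% in TVI metastases and 3.70 and 0% in primary tumors (difference 15.8 points, limma adjusted p = 0.0232). It lost its call without TVI metastasis 1, 2 or 3, without either primary tumor, on the logit scale, after quantile normalization and without the variance trend. Its MFP metastases read 17.9, 0 and 0%, so one of them lay with the TVI metastases. The only member called in MFP metastases against primary tumors, position 173093957 on chromosome 2, read 17.5, 19.6 and 19.2% in MFP metastases and 5.76 and 4.75% in primary tumors (difference 13.6 points, limma adjusted p = 0.035), and lost its call when any of the 8 samples was left out. The 3 TVI metastases read 19.3, 18.1 and 17.2% there.

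Sites around the members were read next. The rule used the positions of these neighbours, 9092 sites within 250 bp of a member that were not members, and it also left out of them every sparse site that was low throughout. A sparse site that is low in one group and above 20% in another is thus a neighbour by rule, which raises the share called among neighbours. With that limit, methylation climbed with distance from the members: non-members at 1 to 50 bp averaged 41.1% in TVI metastases, 37.9% in MFP metastases and 36.9% in primary tumors. From beyond 250 to 500 bp they averaged 50.9% in TVI metastases, 48.6% in MFP metastases and 47.7% in primary tumors, and beyond 2000 bp 81.9% in TVI metastases, 81.4% in MFP metastases and 80.8% in primary tumors. The difference between TVI and MFP metastases was 3.20 points at 1 to 50 bp, 3.60 points at 51 to 100 bp, 2.26 points from beyond 250 to 500 bp and 0.548 points beyond 2000 bp.

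Over all neighbours the mean level was 47.3% ± 0.0245 in TVI metastases, 43.8% ± 0.0965 in MFP metastases (SD, n = 3 each) and 42.8% ± 0.326 in primary tumors (SD, n = 2). TVI exceeded MFP metastases by 3.46 points and did so in 3 of 3 samples (two-sided exact permutation test, p = 0.1, the smallest that 3 against 3 samples allow). They exceeded primary tumors by 4.46 points and MFP metastases exceeded them by 1.001 points, with exact permutation p = 0.2 in both, the smallest possible. All metastases exceeded primary tumors by 2.73 points (exact permutation p = 0.0714, the smallest possible), and adjusted over the 4 comparisons each p was 0.2. After quantile normalization the difference between TVI and MFP metastases was 1.37 points, and that of MFP metastases from primary tumors was -0.0412 points. TVI metastases then exceeded primary tumors by 1.33 points, and all metastases exceeded them by 0.644 points (exact permutation p = 0.571). As deposited, the groups stood in the same order over the whole table, at 68.6% in TVI metastases, 67.4% in MFP metastases and 66.7% in primary tumors. Sparse sites that were not members averaged 84.2% in TVI metastases, 81.9% in MFP metastases and 81.0% in primary tumors.

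At the same overall level, neighbours differed more between the metastasis groups than distant sites. Among sites whose mean over the 8 samples was 20 to 40%, TVI exceeded MFP metastases by 8.91 points within 250 bp of a member and by 3.14 points beyond 2000 bp. At 40 to 60% the differences were 7.05 and 3.68 points, and at 80 to 100% they were 0.479 and 0.225 points. The test was not run on these classes. No member averaged above 17.2%, so the rule took sites out of the lowest class only. Sites low in one group and above 20% in another can fall in the classes above it, so those are not free of the rule either.

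**Figure D4:**
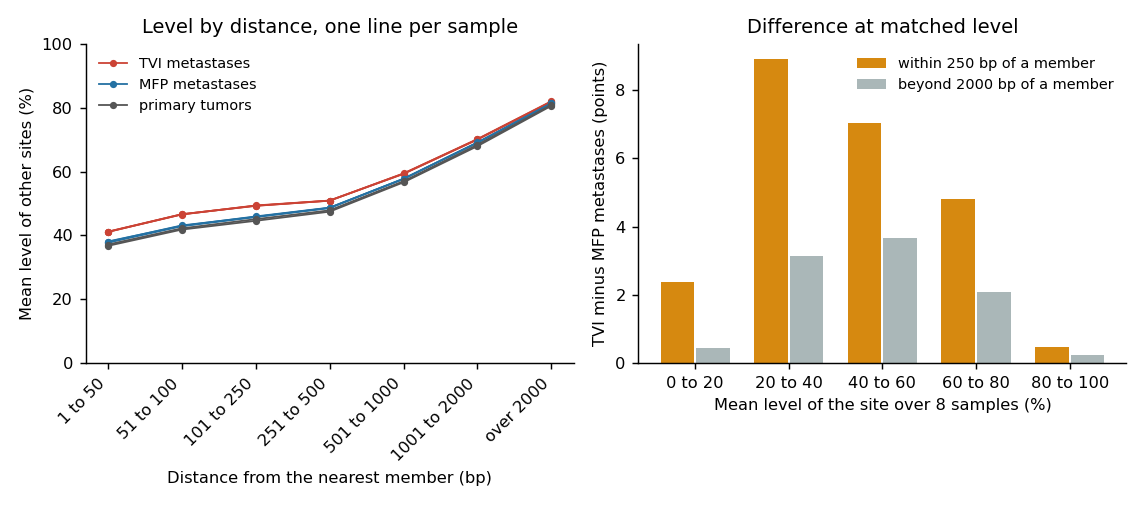
Left, mean methylation level (%) of sites that were not members by distance from the nearest member (bp), 1 line per sample in the color of its group. Right, difference between TVI and MFP metastases (points) for sites of 5 levels, within 250 bp (orange) and beyond 2000 bp (grey) of a member, largest at 8.91 points for neighbours of 20 to 40%.

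Single neighbours passed the limma threshold often. Between TVI and MFP metastases 2089 were higher and 929 lower, or 33.2% of 9086 tested, and against primary tumors TVI metastases had 2136 higher and 712 lower, or 31.3%. With quantile normalization the splits were 1733 to 1234 and 1554 to 1033. For MFP metastases against primary tumors 17 were higher and 1 lower, and for all metastases against primary tumors 1093 were higher and 211 lower, with 569 and 383 after quantile normalization. The shares of all sites that passed are those given above.

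A stretch on chromosome 12 shows members beside such neighbours. At position 8818150 the level was 76.1, 87.7 and 86.8% in TVI metastases, 3.51, 3.23 and 6.90% in MFP metastases, and 11.3 and 3.45% in primary tumors. That is a difference between metastasis groups of 79.0 points (SE 3.76, limma adjusted p = 8.72e-07). The neighbour 54 bp on, at 8818204, was at 75.3% ± 4.95 in TVI metastases and 1.19% ± 1.04 in MFP metastases (SD, n = 3 each). The members at 8818303, 8818320 and 8818428 were at 13.6% ± 3.72, 16.9% ± 4.03 and 15.9% ± 2.62 in TVI metastases, against 1.95% ± 1.65, 0.754% ± 0.653 and 1.22% ± 0.371 in MFP metastases (SD, n = 3 each). The fourth member, at 8818527, read 1.43, 1.75 and 6.38% in TVI metastases, 4.84, 1.75 and 1.85% in MFP metastases, and 0 and 2.17% in primary tumors, which overlap. The first 3 of these 4 members passed the limma threshold in the direction of the neighbours, and were members because they stayed under the limit.

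Another such stretch lies on chromosome 1. The site at 93844165 read 77.2, 85.6 and 87.7% in TVI metastases, 11.7, 16.6 and 19.5% in MFP metastases, and 26.2 and 26.5% in primary tumors. The member 124 bp on, at 93844289, read 3.81, 7.46 and 3.10% in TVI metastases, 3.92, 2.73 and 2.66% in MFP metastases, and 1.49 and 2.05% in primary tumors. It did not pass the test (limma adjusted p = 0.503).

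Neighbours also moved the other way. Position 92232413 on chromosome 2 read 14.1, 4.84 and 17.9% in TVI metastases, 80, 63.5 and 78.0% in MFP metastases, and 76.8 and 65.3% in primary tumors (difference between metastasis groups of -61.6 points, limma adjusted p = 1.66e-05). Position 13425259 on chromosome 8 read 23.2, 10.5 and 15.3% in TVI metastases, 68.5, 80.5 and 76.9% in MFP metastases, and 83.5 and 79.1% in primary tumors. At both sites TVI metastases lay below all other samples, and MFP metastases and primary tumors overlapped.

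Next, sparse sites were taken that were at most 20% in both primary tumors, whatever their level in metastases. There were 8174 of these, and 22165 dense sites met the same condition. Neither metastasis group was used in this choice, but it was not neutral between them. MFP metastases differed from primary tumors at 0.0464% of all tested sites (limma adjusted p under 0.05). Sites low in primary tumors were thus mostly low in MFP metastases too, and TVI metastases had more room to differ upward than downward. Of the sparse ones, 82.4, 81.3 and 81.8% were still at most 20% in TVI metastases 1, 2 and 3, against 95.7, 96.3 and 96.2% in MFP metastases 1, 2 and 3. The groups were far apart, with every TVI metastasis below every MFP metastasis. Of the dense sites, 95.5, 95.1 and 95.2% were still low in TVI metastases, against 98.5, 98.7 and 98.6% in MFP metastases. Low in all samples of a group were 78.4% of the sparse sites in TVI metastases and 93.1% in MFP metastases, and 94.2% and 97.5% of the dense sites.

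The mean level of these 8174 sparse sites was 10.3, 11.03 and 10.8% in TVI metastases, 5.39, 5.30 and 5.38% in MFP metastases, and 4.75% in both primary tumors. TVI exceeded MFP metastases by 5.32 points at sparse sites and by 1.24 points at dense sites (exact permutation p = 0.1 for each, the smallest possible), and by 4.00 and 0.701 points after quantile normalization. A mean of 50% or more was reached by 316 sparse sites (3.87%) in TVI metastases and by 1 in MFP metastases. In the limma fit 2060 sparse sites were higher and 227 lower in TVI than in MFP metastases, or 28.2% of 8120 tested, and 1774 dense sites were higher and 534 lower, or 10.5%, where 16.9% of all sites passed. Since the choice left little room for a fall in TVI metastases, these splits of higher to lower cannot show a direction. The difference between the sparse and the dense class was not itself tested.

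**Figure D5:**
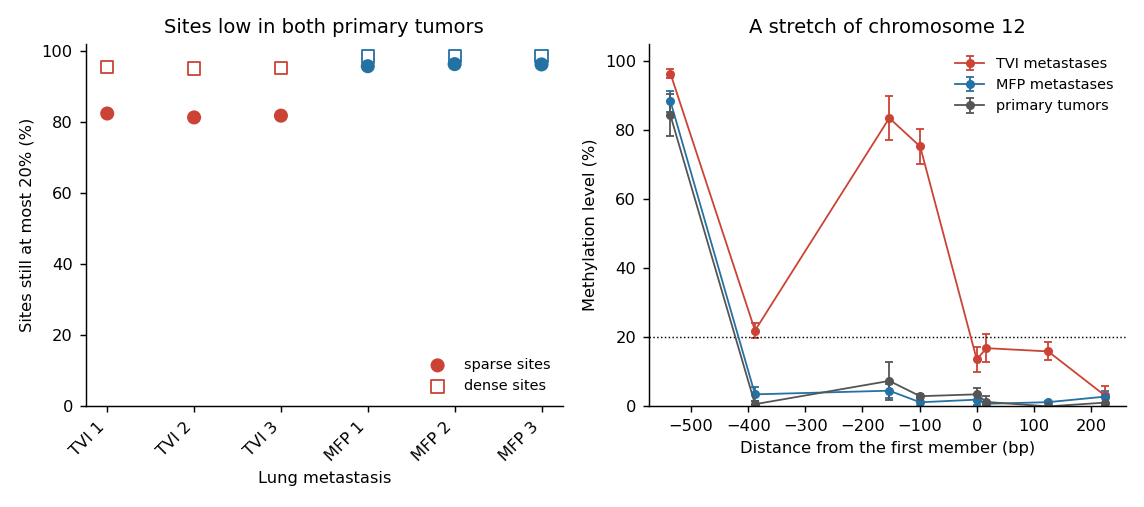
Left, share of the sites low in both primary tumors that were still at most 20% in each lung metastasis (y axis, %), for 8174 sparse sites (filled circles) and 22165 dense sites (open squares); the sparse sites stand at 81.3 to 82.4% in TVI metastases and at 95.7 to 96.3% in MFP metastases. Right, methylation level (mean and SD of each group) of 8 sites in the chromosome 12 stretch by distance from its first member, with the 20% limit dotted.

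Chosen the other way, the loss was smaller. Of 6856 sparse sites low in all 3 TVI metastases, 91.6% were low in all MFP metastases and 93.5% in both primary tumors. In the limma fit 546 were higher and 553 lower in TVI than in MFP metastases. That is 16.2% of 6802 tested, where 16.9% of all sites passed. These sites were chosen on the TVI values being compared, so the limit bounded a rise in TVI metastases but not a fall. The split of higher to lower therefore cannot show a direction. Of 7841 sparse sites low in all 3 MFP metastases, 80.1% were low in all TVI metastases and 97.1% in both primary tumors. The groups differ in their number of samples, and more samples make the condition harder to meet, so the shares per sample given above are the closer comparison.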

How the data were processed

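Methylation was measured in 8 samples by bisulfite sequencing, and the authors deposited 1 table of beta values (methylated calls as a fraction of all calls) with 136069 positions and no missing value. Per the submitters' processing notes, Trimmomatic, Bismark and mm10 were used. The sources used here give no settings, no coverage filter and no rule by which positions were selected. The deposited fractions are printed as percent. The deposited positions of placed promoters differ from those of GRCm38.p6, so the build of the positions was not settled, and positions are printed as deposited.

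The members, gene lists and tests were chosen with earlier results of these data known. Sites were named by rule: the 8 runs with most members, the 8 members with the highest neighbours, the largest differences each way past the threshold, and those at the limit; the Stat5a window, the chromosome 12 and 1 stretches and the DNA before the Syt8 run were chosen after their values were seen. Differences were tested with limma 3.58.1 in R 4.3.3 (1 mean per group over 8 samples, variance trend, Benjamini-Hochberg over 135914 sites that varied), after the fit was tested on simulated data. Mean levels were compared with exact permutation tests over samples (scipy 1.17.1). Promoters were placed in RefSeq sequences by exact CpG spacing: windows with 12 or more matched positions, or 6 or more where another promoter within 5 Mb had the same offset, served as anchors, and other windows within 5 Mb needed 3 or more listed sites, all on CpGs. With chromosomes exchanged, 0 anchors were found and at most 10 positions matched. Alternatives were the logit scale, quantile normalization, no variance trend, a replicate block, only the groups compared, other limits of level, density and distance, and leaving out each sample. The choice of sites on primary tumors alone was added after the data were seen. The main fit did not pair samples by replicate number, and whether same-numbered samples belong together was not settled.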

Additional observations from a re-analysis of the deposited data

Results flagged for a closer look

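Each of the next results was singled out because TVI and MFP metastases differ in a direct test of one against the other (limma, adjusted p under 0.05). There were 672 such members, or 10.9% of those tested, and 3018 such neighbours, or 33.2%, where 16.9% of all tested sites passed. The share of members was thus below that of all sites, and the rule raises the share of neighbours, as described above. In 1 neighbour, both metastasis groups differed from the primary tumors and in opposite directions. This site, at position 52962675 on chromosome 7, read 7.38, 4.24 and 4.28% in TVI metastases, 31.6, 33.3 and 30.9% in MFP metastases, and 17.3 and 16.8% in primary tumors. TVI metastases were 11.7 points below primary tumors (difference of -11.7 points, limma adjusted p = 0.00136) and MFP metastases 14.9 points above them (limma adjusted p = 0.0398). In the second of these comparisons 0.0464% of all tested sites passed. Its call there was lost on the logit scale, with the replicate block and in a fit of only the groups compared. It was also lost without TVI metastasis 2 or 3 and without any 1 of the MFP metastases, settings that called 0 neighbours.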

How the results depend on the processing

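Of the settings run on the named sites, 332 kept direction and call, 19 lost the call and 0 turned direction. The 19 were at the positions on chromosomes 16 and 2 described above. The neighbour at position 52962675 on chromosome 7 was not among these named sites. With a limit of 10%, 4847 members remained, and the members called were 123 for TVI metastases against primary tumors, 142 for TVI against MFP metastases, 27 for all metastases (10 higher and 17 lower, against 118 and 49 with the limit of 20%) and 0 for MFP metastases against primary tumors (limma; 244 under an unadjusted p of 0.05), with 11 neighbours in the last. With at most 4 other sites there were 2576 members, with 245, 294 and 69 called in the first 3 of these comparisons, and 1056, 1124, 481 and 6 neighbours in the 4. With at most 10 other sites there were 10005 members, and the first 2 comparisons called 4353 and 4588 neighbours. For all metastases, 83 members were called on the logit scale and 95 without the variance trend. For MFP metastases against primary tumors, the logit scale and a fit of only the groups compared called 0 members (limma; 498 and 473 under an unadjusted p of 0.05) and 0 neighbours (916 and 931). Quantile normalization called 11 neighbours there and no variance trend 33, and the mean difference of neighbours became -0.0412 points. Sites chosen on primary tumors alone gave 2287 calls between TVI and MFP metastases. The causes were not tested.

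Leaving out 1 sample at a time gave 362 to 586 members called for TVI metastases against primary tumors, 0 to 0 for MFP metastases against primary tumors, 523 to 658 for TVI against MFP metastases and 25 to 205 for all metastases against primary tumors. The neighbours called were 2168 to 2849, 0 to 7, 2536 to 3003 and 305 to 1414, and their mean differences were 4.23 to 4.69, 0.771 to 1.23, 3.40 to 3.50 and 2.38 to 3.10 points. Without the first or the second primary tumor, all metastases gave 25 or 46 members and 305 or 307 neighbours, and TVI metastases against primary tumors 362 or 370 members. A primary tumor left alone is assumed to vary like the other groups.

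Same-numbered samples did not deviate together (correlations of -0.0037 to 0.0172 over 7 pairs, -0.0172 to 0.00731 over 14 others). With the replicate number as a block, members called were 498, 0 (limma; 447 under an unadjusted p of 0.05), 643 and 87, and neighbours 2571, 0, 2917 and 803, in the order of the paragraph before. Depth is unknown, and levels near 0 rest on calls whose number is not given.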
